A study of Mus musculus with 2 samples.

Results

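AMP-activated protein kinase (AMPK) is encoded in the mouse by 7 genes, Prkaa1 and Prkaa2 for the alpha subunit, Prkab1 and Prkab2 for the beta subunit, and Prkag1, Prkag2 and Prkag3 for the gamma subunit. These genes and Stk11, which encodes the upstream kinase LKB1, were chosen by name, and they are 8 of the 55536 genes in the deposited tables. Their RNA was measured in gastrocnemius, the large calf muscle, from adult female B6CASTF1/J mice aged 8 to 10 months, the F1 cross of B6 with CAST. There were 2 libraries in 1 group, each made from 300 ng of total RNA with ERCC spike-ins, a reduction of ribosomal RNA and a directional kit. Replicate 1 is animal 1 of the labels and replicate 2 is animal 3. The labels list separate tissue samples but a shared donor identifier, so the count of 2 animals rests on the labels. No treatment, genotype or second tissue was compared, and no p-value can be given. The design addresses which forms of the kinase the muscle expressed, at what level, and how closely the animals matched.

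AMPK is a complex of one alpha, one beta and one gamma subunit that responds to falling cellular energy. The alpha subunit holds the kinase domain, and LKB1 switches it on by phosphorylating a threonine in its activation loop. The beta subunit joins the other subunits and carries a module that binds glycogen, and the gamma subunit binds AMP, ADP and ATP. In working muscle the active kinase favours glucose uptake and fatty acid oxidation over energy-consuming synthesis.

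Replicate 1 held 42714567 expected counts and replicate 2 held 43421652, so a count of 0 would allow up to 3 counts, or 0.0702 CPM in replicate 1 and 0.0691 CPM in replicate 2. The libraries differed by more than sampling noise, with a chi-square per degree of freedom of 29.2 over 11125 genes. This value uses library totals without further scaling and pools genes of all levels, so it is not the excess noise of a typical gene. The 5 muscle fibre markers lay between 12985 and 23611 TPM in each library, so the tissue label was matched by its markers. Levels are in TPM, transcript abundances scaled to length and library, which are per length and so can be compared between genes. Errors are SDs over the 2 libraries, and intervals and floors cover counting error only. In bulk tissue, fewer cells of a type and less RNA per cell cannot be told apart.

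All 8 genes were detected at 1 TPM or more in both libraries, as were 9673 of the 22015 nuclear protein-coding genes. The 8 genes fell into an abundant set of 5 and a sparse set of 3. Prkab2, Prkaa2, Stk11, Prkag3 and Prkag1 lay between 22.73 and 105.97 TPM. Prkab1, Prkaa1 and Prkag2 lay between 3.12 and 4.54 TPM. Each subunit class therefore had at least 1 abundant gene and exactly 1 sparse gene. Prkab2 was above 94.5% of the 9673 detected nuclear protein-coding genes, and Prkag2, the lowest member in the gene table, was above 23.1% of them. The deposited posterior SD of the gene count was 0 for 8 of 8 members in both libraries. The quantification from alignments thus left no uncertainty in dividing reads between a member and other annotated genes.

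**Figure D1:**
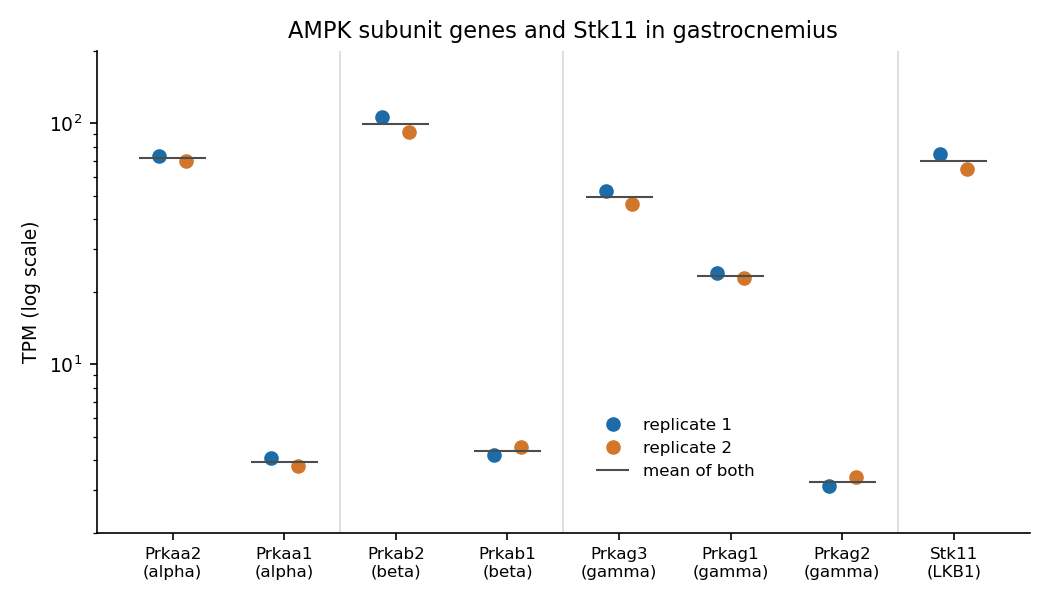
TPM on a log axis for each member, with replicate 1 at the left and replicate 2 at the right of each pair and a line at their mean. Prkab2, Prkaa2, Stk11, Prkag3 and Prkag1 stand above 22 TPM in both libraries, and Prkaa1, Prkab1 and Prkag2 stand below 5 TPM.

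The alpha class was almost wholly Prkaa2. Prkaa2 had 73.47 TPM in replicate 1 and 69.71 TPM in replicate 2, from 16225 and 17644 expected counts. Prkaa1 had 4.07 TPM in replicate 1 and 3.77 TPM in replicate 2, from 519 and 553 expected counts. Each library thus put Prkaa2 far above Prkaa1, with no overlap. The ratio of Prkaa2 over Prkaa1 was 18.1 in replicate 1 and 18.5 in replicate 2. As a share of summed alpha TPM, Prkaa2 made up 94.8 ± 0.0836% and Prkaa1 5.19 ± 0.0836% (SD, n = 2). A gap of this size is far larger than the spread between the libraries. The quantification made directly from reads gave Prkaa2 a share of 94.8 ± 0.0540%.

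Prkaa2 (ENSMUSG00000028518.8) lies at chr4:105029874-105109890 on the minus strand of mm10, and Prkaa1 (ENSMUSG00000050697.9) at chr15:5143861-5181899 on the plus strand. Both encode the catalytic subunit, and their coding sequences were identical at 71.4% of 1627 aligned bases. The stretch of coding exon around the LKB1 target is shown because it is where the upstream kinase meets both subunits. Capitals mark the threonine codon, which is codon 172 in Prkaa2-201 (chr4:105049360-105049404, minus strand) and codon 183 in Prkaa1-201 (chr15:5169946-5169990, plus strand).
Prkaa2-201: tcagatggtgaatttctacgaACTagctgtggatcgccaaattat
Prkaa1-201: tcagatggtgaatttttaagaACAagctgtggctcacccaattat
These windows differ at 6 of 45 bases and encode the same 15 amino acids. Prkaa2 and Prkaa1 thus differ across their coding sequences but not in the residues of this window.

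Prkaa2 has 1 annotated transcript, Prkaa2-201, which took 100% of the gene's TPM. Prkaa1 has 2 annotated transcripts. Prkaa1-201 took 55.41% in replicate 1 and 99.99% in replicate 2, and Prkaa1-202 took 44.59% in replicate 1 and 0.01% in replicate 2. These transcripts share every inner exon end, begin 30 bases apart and end 7 bases apart, and Prkaa1-202 lacks 9 codons. The posterior SD of either transcript's count was 141 in replicate 1 and 113 in replicate 2, against gene counts of 519 and 553. The split between them was therefore not resolvable at this depth, and no difference between the animals can be read from it.

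The beta class was led as strongly by Prkab2. Prkab2 had 105.97 TPM in replicate 1 and 91.85 TPM in replicate 2, from 14568 and 14478 expected counts. Prkab1 had 4.22 TPM in replicate 1 and 4.54 TPM in replicate 2, from 200 and 257 expected counts. Prkab2 was the highest member in both libraries, and Prkab1 was among the 3 lowest. The ratio of Prkab2 over Prkab1 was 25.1 in replicate 1 and 20.2 in replicate 2. Prkab2 made up 95.7 ± 0.622% of summed beta TPM and Prkab1 4.27 ± 0.622% (SD, n = 2). The error was wider than in the alpha class, and Prkab1 had the second lowest count of the members.

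Prkab2 (ENSMUSG00000038205.12) lies at chr3:97658193-97673812 on the plus strand and Prkab1 (ENSMUSG00000029513.14) at chr5:116013586-116024508 on the minus strand. Their coding sequences were identical at 75.3% of 794 aligned bases. Of the 6 transcripts of Prkab2, the coding Prkab2-201 took 99.52% in replicate 1 and 99.61% in replicate 2, and 93.4% and 98.2% directly from reads. From alignments the rest lay in retained-intron forms whose order varied. Prkab2-205 took 0.48% in replicate 1 and was listed at 0 in replicate 2, and Prkab2-203 was listed at 0 in replicate 1 and took 0.39% in replicate 2. Directly from reads Prkab2-203 took 6.57% in replicate 1 and 0.896% in replicate 2. There Prkab2-204, annotated to undergo nonsense-mediated decay, was listed at 0 in replicate 1 and took 0.805% in replicate 2.

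Prkab1 was more mixed, on far fewer reads. Prkab1-202 took 52.46% in replicate 1 and 86.53% in replicate 2. Prkab1-201, which has the same coding sequence, took 25.59% in replicate 1 and was listed at 0 in replicate 2. Together these forms took 78.0% in replicate 1 and 86.5% in replicate 2. The rest went to forms without the full coding sequence. Prkab1-208, annotated to undergo nonsense-mediated decay (NMD), took 13.87% in replicate 1 and was listed at 0 in replicate 2. The retained-intron form Prkab1-205 was listed at 0 in replicate 1 and took 11.35% in replicate 2. The counts behind those minor forms were 11.4 for Prkab1-208 and 11.7 for Prkab1-205, both in the transcript table from alignments. Directly from reads Prkab1-205 was listed at 0 in both libraries, and Prkab1-208 took 19.8% in replicate 1 and was listed at 0 in replicate 2.

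The gamma class was the only one with a large contribution from a second gene. Prkag3 had 52.29 TPM in replicate 1 and 46.41 TPM in replicate 2, from 3931 and 3902 expected counts. Prkag1 had 23.99 TPM in replicate 1 and 22.73 TPM in replicate 2, from 988 and 1094 expected counts. Prkag2 had 3.12 TPM in replicate 1 and 3.40 TPM in replicate 2, from 155 and 199 expected counts. The order Prkag3, Prkag1, Prkag2 was the same in both libraries, with no overlap at either step. The gamma shares were 64.9 ± 1.33% for Prkag3, 30.8 ± 0.792% for Prkag1 and 4.31 ± 0.536% for Prkag2 (SD, n = 2). Prkag3 over Prkag1 was 2.18 in replicate 1 and 2.04 in replicate 2, whereas Prkag3 over Prkag2 was 16.8 in replicate 1 and 13.7 in replicate 2. Directly from reads the shares were 65.5 ± 2.60%, 29.5 ± 2.40% and 5.01 ± 0.198% in the same order of genes.

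**Figure D2:**
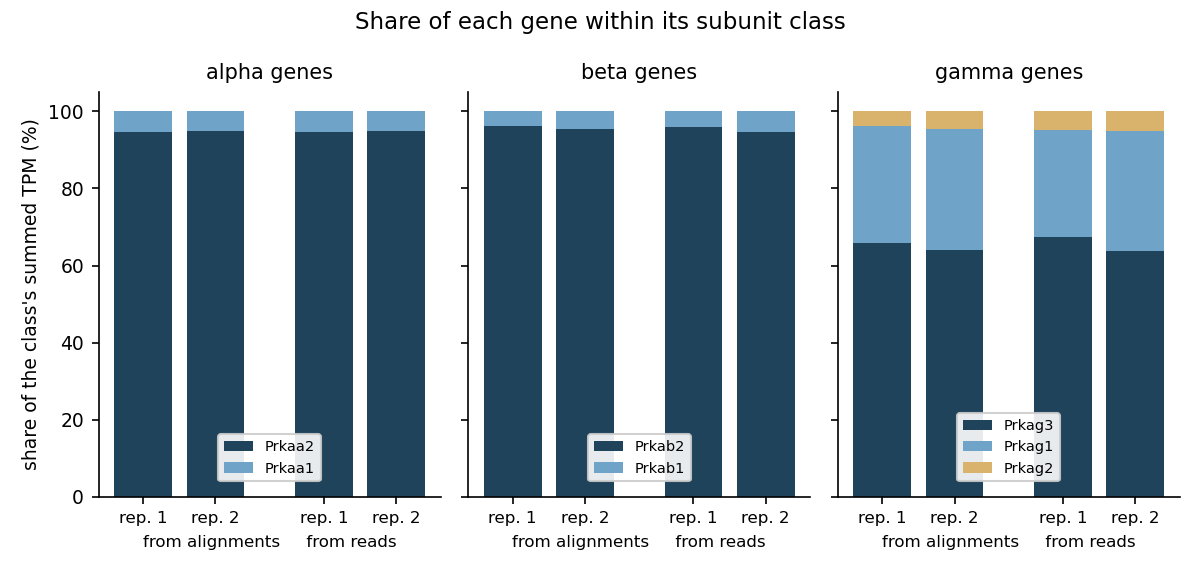
Stacked bars of each gene's share of its class's summed TPM in percent, for replicate 1 and replicate 2, quantified from transcriptome alignments (left pair) and directly from reads (right pair). Prkaa2 and Prkab2 fill over 94% of their classes in every bar, and Prkag3 fills between 63.7% and 67.3% of the gamma bars.

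Prkag3 (ENSMUSG00000006542.13, chr1:74738922-74749221, minus strand) is known as the gamma gene of fast skeletal muscle, and in pigs variants of it raise muscle glycogen. Prkag1 (ENSMUSG00000067713.7, chr15:98812797-98831521, minus strand) is broadly expressed. Prkag2 (ENSMUSG00000028944.14, chr5:24862744-25100642, minus strand) is best known from the heart, where human variants cause a glycogen storage cardiomyopathy. The coding sequences were identical at 67.8% of 976 aligned bases between Prkag3 and Prkag1. They were identical at 67.4% of 958 between Prkag3 and Prkag2 and at 70.4% of 957 between Prkag1 and Prkag2.

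The transcripts of Prkag3 show how a label can change a share. Prkag3-206, annotated as protein coding, and Prkag3-204, annotated as NMD, have the same sequence and so received equal values. Each was listed at 48.34% in replicate 1 and at 46.11% in replicate 2. Together they held 96.7% in replicate 1 and 92.2% in replicate 2, and 83.2% and 80.0% directly from reads. Prkag3-201, with the same coding sequence, added 1.20% in replicate 1 and 1.50% in replicate 2. Prkag3-203, a separate NMD form of 49 codons, took 2.01% in replicate 1 and 3.95% in replicate 2. Directly from reads Prkag3-203 took 12.8% in replicate 1 and 16.1% in replicate 2. If only transcripts annotated as protein coding are summed, the Prkag3 share of gamma TPM is 48.9% and that of Prkag1 is 46.5%. That setting, added after the data were seen, removes the identical copy Prkag3-204 by its annotation alone, and it also removes the separate form Prkag3-203.

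Prkag1 was mostly of 1 form. Prkag1-201 took 89.88% in replicate 1 and 94.25% in replicate 2. Prkag1-206, a shorter coding form of 215 codons against 330 in Prkag1-201, took 10.12% in replicate 1 and 2.88% in replicate 2. Its credibility bounds were 0.971 to 3.83 TPM in replicate 1 and 0.0711 to 1.63 TPM in replicate 2, which overlap. Directly from reads Prkag1-201 took 89.9% in replicate 1 and 80.0% in replicate 2, and Prkag1-206 took 7.66% in replicate 1 and was listed at 0 in replicate 2. There Prkag1-202, a coding form of 139 codons, took 2.06% in replicate 1 and 19.3% in replicate 2. The minor forms of Prkag1 thus depended on the quantification.

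Among the 3 coding forms of Prkag2 with the largest mean shares from alignments, the shortest had the largest share. These forms begin at separate starts spread over the gene, so the first bases of their coding exons are printed, with the start codon in capitals, to show which beginnings are meant. Prkag2-203 (326 codons) opens at chr5:24908324-24908353, Prkag2-201 (566 codons) at chr5:25100095-25100124 and Prkag2-202 (443 codons) at chr5:24995326-24995355, all on the minus strand of mm10.
Prkag2-203: ATGctggagaagctggagttccaggaggaa
Prkag2-201: ATGggaagcgcagccatggacaccaagaag
Prkag2-202: ATGaagcgctttggaagtctgaggggcacc
The transcript start of Prkag2-203 lies 192173 bases downstream of that of Prkag2-201, and its coding sequence is the end of the longer one, without the first 240 codons. Prkag2-203 took 44.41% of the gene in replicate 1 and 50.62% in replicate 2. Prkag2-201 took 8.78% in replicate 1 and 15.99% in replicate 2, and Prkag2-202 took 12.26% in replicate 1 and was listed at 0 in replicate 2. Among these 3 forms Prkag2-203 held 67.9% in replicate 1 and 76.0% in replicate 2, and 73.9% and 73.6% directly from reads. Among these 3 forms the short one led in both libraries and by both quantifications. Outside them, directly from reads, the coding Prkag2-210 took 18.3% of the gene in replicate 1 and was listed at 0 in replicate 2. There the coding Prkag2-206 took 4.67% in replicate 1 and 6.19% in replicate 2.

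A further part of Prkag2 was listed under a retained-intron transcript. Prkag2-207 took 28.79% in replicate 1 and 22.61% in replicate 2, on 13.9 and 13.6 counts. Directly from reads it took 35.7% in replicate 1 and 40.8% in replicate 2, more than Prkag2-203 with 29.9% in replicate 1 and 34.4% in replicate 2. Which of the 2 transcripts led Prkag2 therefore depended on the quantification.

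Stk11 stood beside the alpha subunit it phosphorylates. Stk11 (ENSMUSG00000003068.16, chr10:80115803-80130682, plus strand) had 74.40 TPM in replicate 1 and 64.87 TPM in replicate 2, from 3459 and 3573 expected counts. Stk11 over Prkaa2 was 1.01 in replicate 1 and 0.931 in replicate 2, so their order differed between the libraries. At 69.6 ± 6.74 TPM for Stk11 and 71.6 ± 2.66 TPM for Prkaa2 (SD, n = 2), these levels did not differ beyond their spread.

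Stk11 RNA was divided among 3 coding transcripts. Stk11-202 took 38.73% in replicate 1 and 32.58% in replicate 2. Stk11-201 took 31.44% in replicate 1 and 36.91% in replicate 2, and Stk11-210 took 26.85% in replicate 1 and 27.82% in replicate 2. Stk11-202 thus led in replicate 1 and Stk11-201 in replicate 2. The credibility bounds of Stk11-202 were 24.4 to 31.0 TPM in replicate 1 and 17.8 to 23.1 TPM in replicate 2, which do not overlap. In plain TPM the whole gene also stood higher in replicate 1, at 74.40 against 64.87 TPM, while its TMM-scaled log2 ratio was −0.03. The gap in the bounds of Stk11-202 is therefore not read as a difference between the animals. Those of Stk11-201 were 20.8 to 24.7 TPM in replicate 1 and 21.5 to 25.3 TPM in replicate 2. Those of Stk11-210 were 15.8 to 22.9 TPM in replicate 1 and 14.6 to 20.8 TPM in replicate 2, and both of these forms overlapped between the animals. Directly from reads Stk11-201 led in both libraries, with 36.9% in replicate 1 and 42.4% in replicate 2. There Stk11-202 had 31.4% in replicate 1 and 22.0% in replicate 2, and Stk11-210 had 21.5% in replicate 1 and 25.1% in replicate 2. The share of Stk11-202 was higher in replicate 1 than in replicate 2 by both quantifications.

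The 3 Stk11 forms differ at the ends of the protein. Stk11-201 (436 codons) and Stk11-210 (412 codons) share 372 codons and then splice to different last coding exons, and such carboxy-terminal long and short forms of LKB1 are well known. The spliced coding bases at that junction are shown, with the last shared bases in lower case and the form's own exon in capitals (mm10, plus strand, chr10:80128086-80129934 for Stk11-201 and chr10:80128086-80128420 for Stk11-210).
Stk11-201: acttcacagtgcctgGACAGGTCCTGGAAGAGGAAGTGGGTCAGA
Stk11-210: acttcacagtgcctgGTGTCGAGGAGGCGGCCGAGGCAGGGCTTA
Stk11-202 (310 codons) begins 9572 bases downstream of Stk11-201 and has 104 bases of its own before it joins exon 3 of that transcript. Its annotated start codon, in capitals, is codon 127 of Stk11-201 in the same frame (chr10:80125483-80125512, plus strand), so 126 codons are missing.
Stk11-202: ATGgtgatggagtactgcgtatgtggcatg
The missing codons include the first part of the kinase domain. Whether any of these transcripts was translated was not measured.

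**Figure D3:**
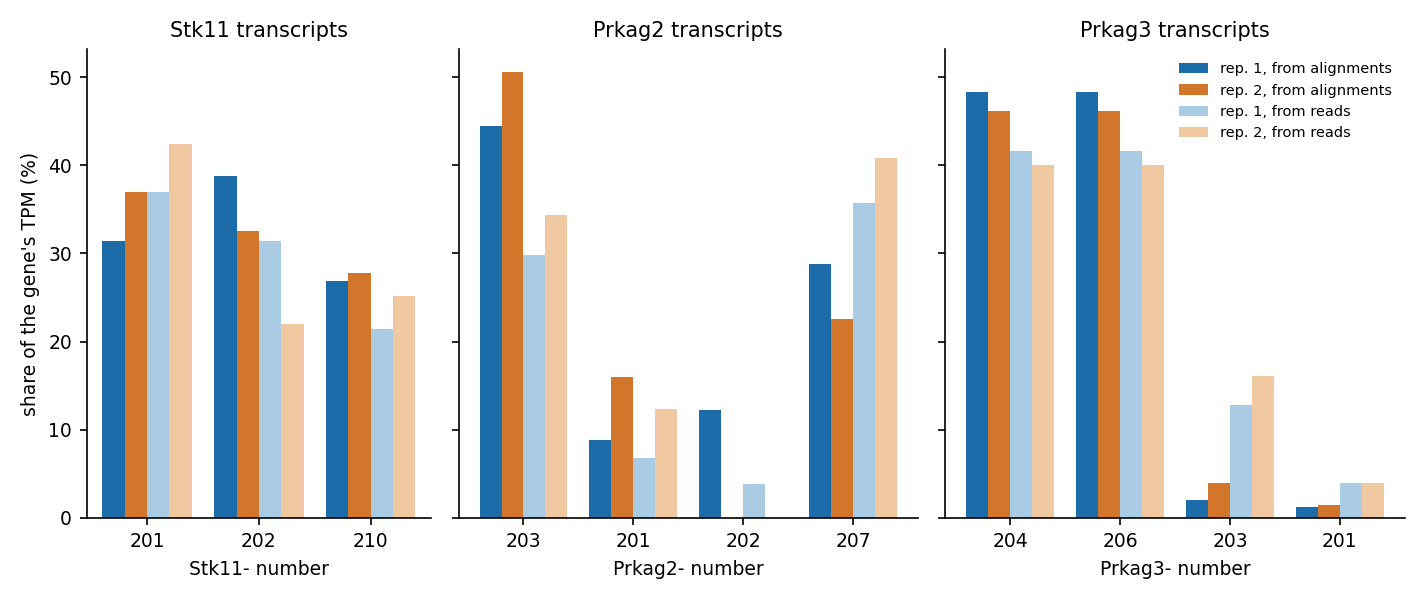
Bars of the share of the gene's TPM, in percent, held by the main transcripts of Stk11, Prkag2 and Prkag3, for replicate 1 and replicate 2 from transcriptome alignments (dark) and directly from reads (pale). Stk11 is divided among 3 transcripts, Prkag2-203 and Prkag2-207 exchange the lead between quantifications, and the identical Prkag3-204 and Prkag3-206 have equal bars.

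Summed over its genes, the beta class was above the other classes. Beta transcripts reached 110.19 TPM in replicate 1 and 96.39 TPM in replicate 2. Gamma transcripts reached 79.40 TPM in replicate 1 and 72.54 TPM in replicate 2, and alpha transcripts reached 77.54 TPM in replicate 1 and 73.48 TPM in replicate 2. The lowest beta value lay above the highest gamma and alpha values. Beta over alpha was 1.42 in replicate 1 and 1.31 in replicate 2, and beta over gamma was 1.39 in replicate 1 and 1.33 in replicate 2. Gamma over alpha was 1.02 in replicate 1 and 0.987 in replicate 2, so alpha and gamma sums did not differ beyond their spread. Directly from reads gamma over alpha was 1.15 in replicate 1 and 1.19 in replicate 2, above 1 in both. These are RNA sums per length and give no count of protein subunits.

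Among the leading genes, Prkab2 over Prkaa2 was 1.44 in replicate 1 and 1.32 in replicate 2, and Prkaa2 over Prkag3 was 1.41 in replicate 1 and 1.50 in replicate 2. The order Prkab2, Prkaa2, Prkag3 was the same in both libraries and by both quantifications. Below them came Prkag1, and then the sparse genes. Prkab1 (4.38 ± 0.226 TPM), Prkaa1 (3.92 ± 0.212 TPM) and Prkag2 (3.26 ± 0.198 TPM; SD, n = 2) kept this order in both libraries. The order of the last 2 turned directly from reads, where Prkag2 had 3.57 TPM in replicate 1 and 3.58 TPM in replicate 2, and Prkaa1 had 3.35 TPM in replicate 1 and 3.03 TPM in replicate 2. Prkaa1 and Prkag2 are therefore not ordered by these data.

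The protein-coding genes nearest in level were found by the root mean square difference of log2(TPM + 0.1) over the 2 libraries. Nearest to Prkaa2 were Prpf19, a splicing factor (73.25 TPM in replicate 1 and 69.82 TPM in replicate 2), and Psmd8, a proteasome subunit (74.48 and 69.39 TPM). Nearest to Prkab2 were Laptm4a (105.11 and 91.22 TPM) and Mknk2, a protein kinase (107.41 and 93.26 TPM). Nearest to Prkag3 were Fam120a (52.21 and 46.69 TPM) and Tmed10 (52.33 and 46.12 TPM). Nearest to Stk11 were Clcn1, the chloride channel of skeletal muscle (74.31 and 64.64 TPM), and Psma6, a proteasome subunit (74.86 and 64.70 TPM). With 2 libraries, such likeness says only that the levels were alike.

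The ratios between the animals ranged from −0.34 to 0.03 on the log2 scale. In TMM-scaled counts the log2 ratio of replicate 1 over replicate 2 was 0.03 for Prkab2 and 0.03 for Prkag3, and it was −0.03 for Stk11, −0.08 for Prkaa1, −0.10 for Prkaa2 and −0.13 for Prkag1. Prkab1 and Prkag2, the members with the fewest counts, were the farthest apart at −0.34 each, farther than 84.0% of tested genes for Prkab1 and 83.8% for Prkag2. At least 2-fold differences were found for 0 of 8 members, against 154 of 11125 tested genes (1.38%), of which 78 were higher in replicate 1 (0.701%) and 76 were higher in replicate 2 (0.683%). With so low a background, 0 of 8 is near what the tested genes show and is not a result about the members. The members' median was −0.09 and that of all tested genes was −0.0041, with quartiles of −0.11 and 0.14.

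The counting error was small beside these ratios for some members only. On the log2 scale the 95% counting interval reached to each side of the ratio by 0.03 for Prkaa2 and for Prkab2, 0.06 for Prkag3, 0.07 for Stk11, 0.12 for Prkag1, 0.17 for Prkaa1, 0.27 for Prkab1 and 0.30 for Prkag2. The intervals of Prkaa2, Prkab1, Prkag1 and Prkag2 lay below 0 and those of the other 4 members held 0. The direction also rested on the scaling. By spike-ins the median of all tested genes moved to 0.12, and 5 of 8 members were above 0, against 2 of 8 by TMM. Prkaa1 then stood at 0.05, Prkaa2 at 0.023 and Stk11 at 0.10, while Prkag1 stood at −0.0026, Prkab1 at −0.22 and Prkag2 at −0.21. Directly from reads Prkag3 stood at −0.0032. No direction between the animals is therefore given for Prkaa1, Prkaa2, Prkag1, Prkag3 or Stk11. Prkab1 and Prkag2 stayed below 0 in every setting, but by spike-ins their counting intervals, 0.27 and 0.30 to each side, held 0. The interval of Prkab2 held 0 by TMM. These intervals leave out noise between the libraries beyond counting, so no direction is given for Prkab1, Prkab2 or Prkag2 either. In plain TPM, 6 of 8 members were higher in replicate 1, where protein-coding genes, mitochondrially encoded ones included, took 52.8% of all TPM, against 47.5% in replicate 2.

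**Figure D4:**
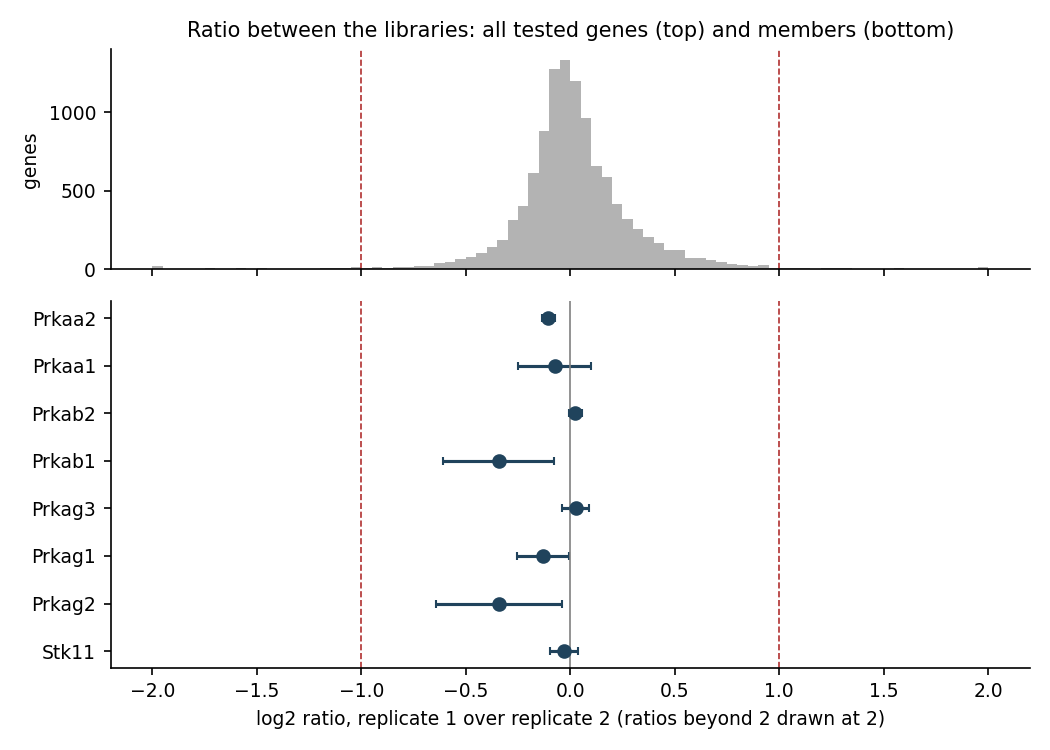
Top, a histogram of the log2 ratio of replicate 1 over replicate 2 for the 11125 tested genes, and bottom, the same ratio for each member with its 95% counting interval. Dashed lines mark 2-fold. The members lie between −0.34 and 0.03, and none reaches a dashed line. Prkab1 and Prkag2, at −0.34 each, lie farther from 0 than 84.0% and 83.8% of tested genes.

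The partners that LKB1 needs for activity were present with it. Cab39, which encodes the scaffold MO25 alpha, had 76.45 TPM in replicate 1 and 73.03 TPM in replicate 2, close to Stk11. Stradb, one of the pseudokinases that bind LKB1, had 63.01 TPM in replicate 1 and 58.18 TPM in replicate 2. Their paralogs were lower, with 10.17 and 8.87 TPM for Cab39l and 6.98 and 5.20 TPM for Strada in replicates 1 and 2. Of the 4 partner genes 4 were detected. Here and in the lists below, the background of detection was 9673 of 22015 nuclear protein-coding genes. Each paralog pair therefore had a leading gene, as the alpha and beta classes did.

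Other kinases known to phosphorylate the same threonine were lower than Stk11 in both libraries. Map3k7, which encodes TAK1, had 25.98 TPM in replicate 1 and 18.13 TPM in replicate 2, and its partner Tab1 had 5.12 and 5.06 TPM. Camkk2, the calcium-dependent kinase, had 1.06 TPM in replicate 1 and 1.17 TPM in replicate 2, and Camkk1 had 0.22 and 0.09 TPM, under the detection threshold. In this list 3 of 4 genes were detected.

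LKB1 also activates a family of AMPK-related kinases, of which 8 of 12 were detected, and each was below Prkaa2. The highest were Mark3 (23.36 TPM in replicate 1 and 18.83 TPM in replicate 2), Snrk (18.42 and 21.32 TPM), Sik3 (18.28 and 17.51 TPM) and Mark2 (15.82 and 13.13 TPM). The lowest were the Brsk genes, best known from brain, with 0.19 and 0.18 TPM for Brsk1 and 0.08 and 0.04 TPM for Brsk2. Their median log2 ratio between the animals was 0.14 over 9 tested genes, from −0.36 to 0.87. The top of that range was Sik1, named after its values were seen, with 8.42 TPM in replicate 1 and 4.00 TPM in replicate 2. By spike-ins the ratio of Sik1 was 1.00, at the 2-fold line.

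Genes for proteins that bind or dephosphorylate AMPK were detected in 9 of 10 cases. Ppm1a, a phosphatase that can act on the alpha subunit, had 146.22 TPM in replicate 1 and 139.01 TPM in replicate 2, above every subunit gene. Ppp1r3c, which brings a phosphatase to glycogen, had 166.36 TPM in replicate 1 and 95.48 TPM in replicate 2. Ppm1b followed with 70.41 and 68.01 TPM and Fkbp4, a chaperone partner, with 57.34 and 51.18 TPM. At the low end, Fnip2 had 1.85 and 1.30 TPM and Ppm1e had 0.17 and 0.04 TPM.

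Known AMPK substrates were all present, with 24 of 24 detected, against 9673 of 22015 nuclear protein-coding genes. Gys1, muscle glycogen synthase, led with 127.63 TPM in replicate 1 and 125.25 TPM in replicate 2. Acacb, the acetyl-CoA carboxylase that controls fatty acid entry into mitochondria, had 81.41 and 79.09 TPM. The mitochondrial fission genes Mtfr1l (69.43 and 61.26 TPM) and Mff (68.62 and 59.18 TPM) came next. Near the low end was Lipe, hormone-sensitive lipase (4.62 and 4.36 TPM). The median log2 ratio of the substrates between the animals was −0.00088, with 12 of 24 above 0, and the range ran from −0.39 to 0.83.

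The enzymes that make and remove AMP, the ligand of the gamma subunit, included the most abundant genes of these lists. Ak1, the adenylate kinase of the cytosol, had 805.43 TPM in replicate 1 and 701.45 TPM in replicate 2. Ampd1, the muscle AMP deaminase, had 775.01 TPM in replicate 1 and 709.59 TPM in replicate 2. Both stood well above the gamma class sum. Adk (43.89 and 42.61 TPM) and Nt5c1a (21.12 and 18.38 TPM), which remove adenosine and AMP, followed. Ampd2 (0.96 and 1.40 TPM) and Nt5e (0.52 and 0.61 TPM) were the lowest, and 10 of 12 were detected. At least 2-fold differences between the animals were found for 0 tested genes of these 6 lists in TMM-scaled counts. From the LKB1 partners to AMP metabolism, in the order given, the lists had 4, 3, 9, 9, 24 and 12 tested genes. Against 154 of 11125 tested genes (1.38%), 0 is near the background and is not a result about the lists.

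**Figure D5:**
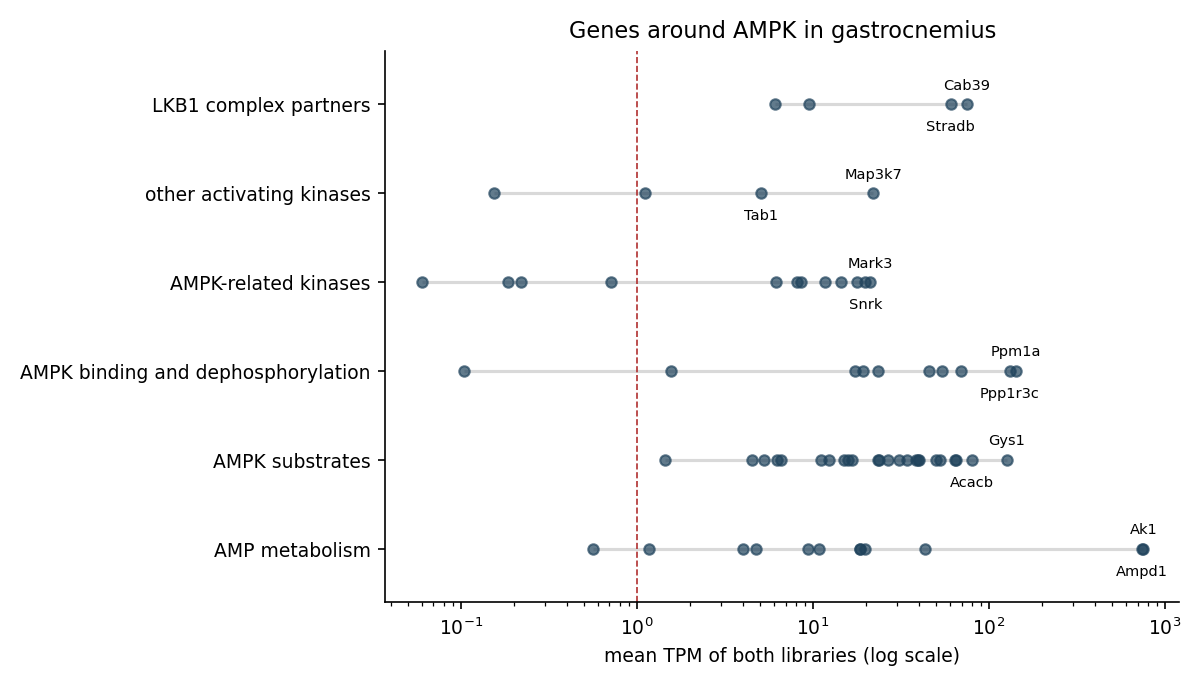
Mean TPM of both libraries on a log axis for each gene of 6 lists around AMPK, with the 2 highest of each list named and a dashed line at 1 TPM. Ak1 and Ampd1 stand apart at the high end, all substrates lie right of the line, and the kinases other than Stk11 that act on the loop lie at 22.1 TPM or below.

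The markers of fibre and cell types that the tissue could hold were read beside these genes. Fast glycolytic fibre markers summed to 26563 TPM in replicate 1 and 23105 TPM in replicate 2, and slow or oxidative markers to 1994 TPM in replicate 1 and 2022 TPM in replicate 2. Of the 6 slow or oxidative markers, 0 were higher in replicate 1 by TMM, with a median log2 ratio of −0.19, against −0.0041 for all tested genes. Of the 4 fast markers 3 were higher in replicate 1 by TMM, with a range from −0.25 to 0.10. By spike-ins 1 of the 6 slow or oxidative markers was above 0, with a median of −0.065. No difference in fibre type between the animals is read from these values. Endothelial markers summed to 53.5 TPM in replicate 1 and 44.6 TPM in replicate 2, with 5 of 5 detected, and fibroblast markers to 127 and 91.1 TPM, also with 5 of 5 detected. Schwann cell markers differed most, at 53.2 TPM in replicate 1 and 11.5 TPM in replicate 2. At least 2-fold higher in replicate 1 were 4 of 4, against 78 of 11125 tested genes (0.701%). Macrophage markers summed to 8.68 TPM in replicate 1 and 8.58 TPM in replicate 2, with 2 of 4 detected. Adipocyte and satellite cell markers were detected in 0 of 3 and 0 of 2 cases, at sums of 2.89 and 1.91 TPM and of 1.19 and 1.10 TPM. The sparse members, at 3.12 to 4.54 TPM, lie below the endothelial, fibroblast, Schwann cell and macrophage sums. A sum over several markers is not the level of 1 gene, and the part of these cells in the members' levels was not tested.

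Genes annotated on the opposite strand of the members carried few counts. Prkaa1, Prkab1, Prkab2, Prkag1 and Prkag2 overlap such genes, and these had counts of 0 in both libraries except 1500035N22Rik at Prkag2, with counts of 0 in replicate 1 and 1 in replicate 2. Cbarp, which overlaps Stk11 by 232 bases, had 34 counts in replicate 1 and 31 counts in replicate 2. The strand setting of the deposited counting is not given in the sources used here, so those reads cannot be assigned to a strand with certainty.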

How the data were processed

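For each of the 2 libraries the authors deposited a gene table, a transcript table made from transcriptome alignments and a transcript table made directly from reads, on mm10 and GENCODE M21 per the deposited descriptions. No program or version is named in these sources. Expected counts, as deposited, estimate the reads of a gene or transcript without normalization. The deposited TPM values are scaled by length and to a fixed total per library, so abundant RNAs lower every other value. The percent column of the authors' transcript table (IsoPct) is a transcript's share of its gene. Posterior SDs and credibility bounds, deposited as scores, accompany posterior mean TPM values that can differ slightly from the TPM column. The level of those bounds is not given in the sources used here. They cover the assignment of reads, not animals.

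Members were matched by symbol. A gene was called detected at 1 TPM in both libraries. Shares were taken within each class's summed TPM. Expected counts were rounded and scaled by TMM (edgeR 4.0.16, R 4.3.3), and log2 ratios of replicate 1 over replicate 2 used CPM with a prior count of 2 over genes with a mean count of at least 50. Counting intervals are 95% Poisson approximations, and without molecular identifiers they cover counting error only. Of the steps across genes, only that of the log2 ratios was tested on simulated data, in which known changes were set. Alternatives were scaling by spike-ins or by the size factors of DESeq2 1.42.0, other prior counts, filters and thresholds, posterior mean TPM, rescaling to the nuclear protein-coding total, the direct quantification and leaving out each library. Coding sequences were cut from the GENCODE M21 reference transcripts with the annotation, so they are not sequences of these animals. The other software was pandas 2.3.3, matplotlib 3.10.9, SciPy 1.17.1 and NumPy 2.4.6 in Python 3.11.15.

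Members and the 19 gene lists (112 genes) were chosen with earlier results of these data known. Named were the members, the 4 highest and 2 lowest genes of each pathway list, the 2 genes nearest in level to leading members, each member's 2 leading transcripts and any over 10%. Markers are given as sums, and 1 gene that the rule takes is not reported here. Reads were not split by parental allele.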

Additional observations from a re-analysis of the deposited data

How the results depend on the processing

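No paired analysis was possible because the samples form 1 group. Of 86 alternative values with a spread or counting error to set them against, 50 moved by no more than it and 36 by more. These are not all separate checks. Prkaa2-201 is the only annotated transcript of its gene and stays at 100% by construction. The shares of Prkaa1 and Prkaa2, and those of Prkab1 and Prkab2, move by the same amount. Leaving out a library of 2 moves a mean by less than its SD by construction, so the 36 further values from that setting say nothing about stability. Of 12 alternative counts of genes, 10 lay within 1.5 times the reported count and 2 did not. The log2 ratios of Prkaa1, Prkaa2 and Stk11 changed sign under spike-in scaling, and that of Prkag3 was −0.0032 directly from reads. In expected counts, which are not per length, the shares were 96.9% for Prkaa2, 98.5% for Prkab2 and 76.3% for Prkag3, and with posterior mean TPM they were 95.0% for Prkab2 and 63.5% for Prkag3. Summing protein-coding transcripts only, chosen after the data were seen, gave 96.4% for Prkab2 and 48.9% for Prkag3. The summed alpha TPM was 61.1 directly from reads and 165 rescaled over nuclear protein-coding genes, the beta sum was 85.6 and 226, and the gamma sum was 166 when rescaled. Spike-in scaling gave log2 ratios of 0.023 for Prkaa2, 0.15 for Prkab2, −0.0026 for Prkag1, 0.16 for Prkag3 and 0.10 for Stk11, and of 183 genes past 2-fold 128 were higher in replicate 1 and 55 in replicate 2. Directly from reads 70 of 108 such genes were higher in replicate 1 and 38 in replicate 2. A count minimum of 10 raised the genes past 2-fold to 578, and no filter raised them to 2577; the members' ratios do not depend on it.

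Directly from reads the transcript shares were 95.8% for Prkab2-201, 84.9% for Prkag1-201, 32.1% for Prkag2-203, 40.8% for Prkag3-206 and 26.7% for Stk11-202. Among protein-coding transcripts only, they were 100% for Prkab2-201, 67.5% for Prkag2-203 and 94.8% for Prkag3-206. Counting the identical Prkag3 transcripts as 1, also chosen after the data were seen, gave 94.5%. Apart from the label filter and the merging, the cause of these moves was not tested. Depth limits Prkab1 and Prkag2, whose transcripts rest on few counts, and 2 libraries limit every SD.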
